A study of Mus musculus with 6 samples.

Results

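The CXC chemokine ligands described here are 10 genes, Cxcl1, Cxcl2, Cxcl3, Cxcl5, Cxcl9, Cxcl10, Cxcl11, Cxcl12, Cxcl14 and Cxcl16, chosen by gene name from the 54532 genes of the count table. Each name matched 1 gene. RNA-seq was performed on N9 microglia, an immortalized mouse line from brain, so every library comes from a single cell line. The 3 control libraries were from untreated cells and the 3 LPS libraries from cells given lipopolysaccharide, the outer membrane component of Gram-negative bacteria, at 1 µg/ml for 6 h. No genetic change was listed for either group, and the comparison asks which transcripts change when microglia are stimulated. Nothing in the labels says that replicates were separate cultures, so p-values measure the spread between these libraries only, which may be technical.

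CXC chemokines are small secreted proteins named for a pair of cysteines separated by another residue, and they direct leukocyte migration through G protein-coupled receptors. Cxcl1, Cxcl2, Cxcl3 and Cxcl5 carry a glutamate-leucine-arginine motif and attract neutrophils through Cxcr2. Cxcl9, Cxcl10 and Cxcl11 are inducible by interferon and attract activated T cells and natural killer cells through Cxcr3. Cxcl12 is the homeostatic ligand of Cxcr4, Cxcl14 is another constitutively made ligand whose receptor is less settled, and Cxcl16 is made as a transmembrane protein that binds Cxcr6. Toll-like receptor 4, the LPS sensor, acts through Myd88 to NF-κB and through Ticam1 to interferon regulatory factors, and NF-κB and interferon-induced factors are both known to act at promoters of this family.

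Promoter sequences are shown first, because the members with the most reads after LPS differ in the binding motifs that lie before their start sites. RefSeq start sites on GRCm38.p6 were found for 7 of the 10 members, and the 250 bases before each start were searched on both strands for 4 motifs. These were the κB consensus, GAAANNGAAA for the interferon-stimulated response element (ISRE), TGANTCA for AP-1 and TTCNNNGAA for the interferon-gamma activated site (GAS). The stretches that hold the κB matches of Cxcl1, Cxcl2, Cxcl3 and Cxcl10 are printed 5′ to 3′ and end at the base before the start site, with κB and ISRE matches in capitals.
Cxcl1 (chr5:90891115-90891244, plus strand, 130 bases): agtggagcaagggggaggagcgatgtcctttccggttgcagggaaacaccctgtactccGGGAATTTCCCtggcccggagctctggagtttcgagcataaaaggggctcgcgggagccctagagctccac
Cxcl2 (chr5:90903769-90903898, plus strand, 130 bases): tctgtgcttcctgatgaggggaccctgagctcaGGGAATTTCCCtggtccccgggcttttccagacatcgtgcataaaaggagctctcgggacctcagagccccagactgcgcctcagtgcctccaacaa
Cxcl3 (chr5:90785971-90786100, plus strand, 130 bases): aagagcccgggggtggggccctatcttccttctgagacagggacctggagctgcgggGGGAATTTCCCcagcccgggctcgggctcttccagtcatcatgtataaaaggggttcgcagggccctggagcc
Cxcl10 (chr5:92348890-92349139, minus strand, 250 bases): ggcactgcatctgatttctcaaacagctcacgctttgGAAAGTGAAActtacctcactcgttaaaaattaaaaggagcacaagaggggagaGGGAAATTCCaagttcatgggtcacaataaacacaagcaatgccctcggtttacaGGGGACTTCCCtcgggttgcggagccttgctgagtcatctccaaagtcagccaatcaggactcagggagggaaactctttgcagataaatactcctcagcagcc

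Cxcl1, Cxcl2 and Cxcl3 held the identical run GGGAATTTCC, beginning 71, 97 and 73 bases before the start site. In each, a second κB match overlapped it on the opposite strand, shifted by 1 base. The Cxcl10 window held κB matches beginning 159 and 104 bases before the start, the latter again overlapped by a match shifted by 1 base. It also held an ISRE match beginning 213 bases and an AP-1 match beginning 74 bases before the start. The Cxcl14 window held an ISRE match and a GAS match but no κB match, and no match to any of the 4 motifs was found in the windows of Cxcl9 and Cxcl12.

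Among 27025 RefSeq promoters of the same length, 7.01% held a κB match, 3.04% an ISRE match, 6.87% an AP-1 match and 7.18% a GAS match. A κB match together with an ISRE match was present in 44 promoters (0.163%). The run GGGAATTTCC, looked up after it was seen in the members, was present on either strand in 23 promoters (0.0851%), and 3 of these were Cxcl1, Cxcl2 and Cxcl3. Up-regulated DEG made up 2.4% of all genes tested. Of tested genes with a κB match, 30 of 772 (3.89%) were up-regulated DEG, and of those with an ISRE match 44 of 249 (17.7%). With both motifs the share was 5 of 24 (20.8%), close to that of all genes with an ISRE match, which include these 24. The 5 were Cxcl10, itself a ligand described here, Gbp5, Oas3, Fcgr4 and Tm4sf1. Of the 23 genes with the run, 17 were in the count table by name and 8 were tested, and the up-regulated DEG were Nfkbia, Gbp5 and Cxcl2, of which Cxcl2 is among the members in which the run was first seen. A match describes letters in a window and is not a measured binding site, and Cxcl1 shows that the same run can precede a gene with almost no reads here.

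The libraries held between 16363767 and 17956772 counted reads, and levels are given as CPM, counts relative to the library size after scaling by TMM factors between 0.965 and 1.04. A library with 3 counts of a gene stands at 0.161 to 0.19 CPM, which is also the upper limit that a count of 0 allows, covering counting error only. Of 10 microglia and macrophage markers, none was at 0 in every library, and their summed level was 1561 to 1656 CPM in control and 1648 to 1696 CPM with LPS. Of the 8 markers tested, Csf1r (log2FC 0.16) and Ptprc (0.24) rose, Trem2 (-0.52) and Adgre1 (-0.23) fell and 4 did not pass at adjusted p alone, so the sum hides changes in both directions. Cd68 led the list, whereas P2ry12, a marker of resting microglia, had only 3 to 6 counts per library. Aif1, also on the list, had only 4 to 9 counts per library and was not tested, and Cx3cr1 had 33 to 68. Hepatocyte markers (9 genes, none at 0 in every library, none with enough reads for a test) summed to 8, 232 and 431 counts in the control libraries and to 3, 4 and 12 in the LPS libraries, in replicate order. The log2 fold change of each tested ligand is therefore also given below without control replicates 2 and 3. The control kept in that fit, replicate 1, had the most fibroblast marker reads of the 6 libraries (205 counts), so that fit is not free of reads from markers of other cells.

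Of the 10 ligands, 4 had enough reads for the edgeR test. Cxcl10 and Cxcl2 were up-regulated DEG (adjusted p under 0.05 and a log2 fold change, log2FC, over 1.5), against 2.4% of the 12296 genes tested that were called in this direction and 2.65% in either, and no ligand was a down-regulated DEG, against 0.252%. Both were also called without control replicates 2 and 3. At adjusted p alone Cxcl16 also rose and Cxcl14 fell, so that all 4 tested ligands passed, against 34.3% of tested genes in either direction. The CPM of control and LPS libraries did not overlap for any of the 4, which was the case for 45.3% of tested genes. Over all tested genes the median log2FC was 0.0036. The 4 ligands had log2FC of 7.04, 6.60, 1.12 and -0.41, so their median of 3.86 is near none of them. These 4 were those with enough reads in at least a group, and the 6 remaining ligands had at most 11 counts in any library. In bulk RNA, a change in the number of expressing cells and a change in RNA per cell cannot be told apart.

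**Figure D1:**
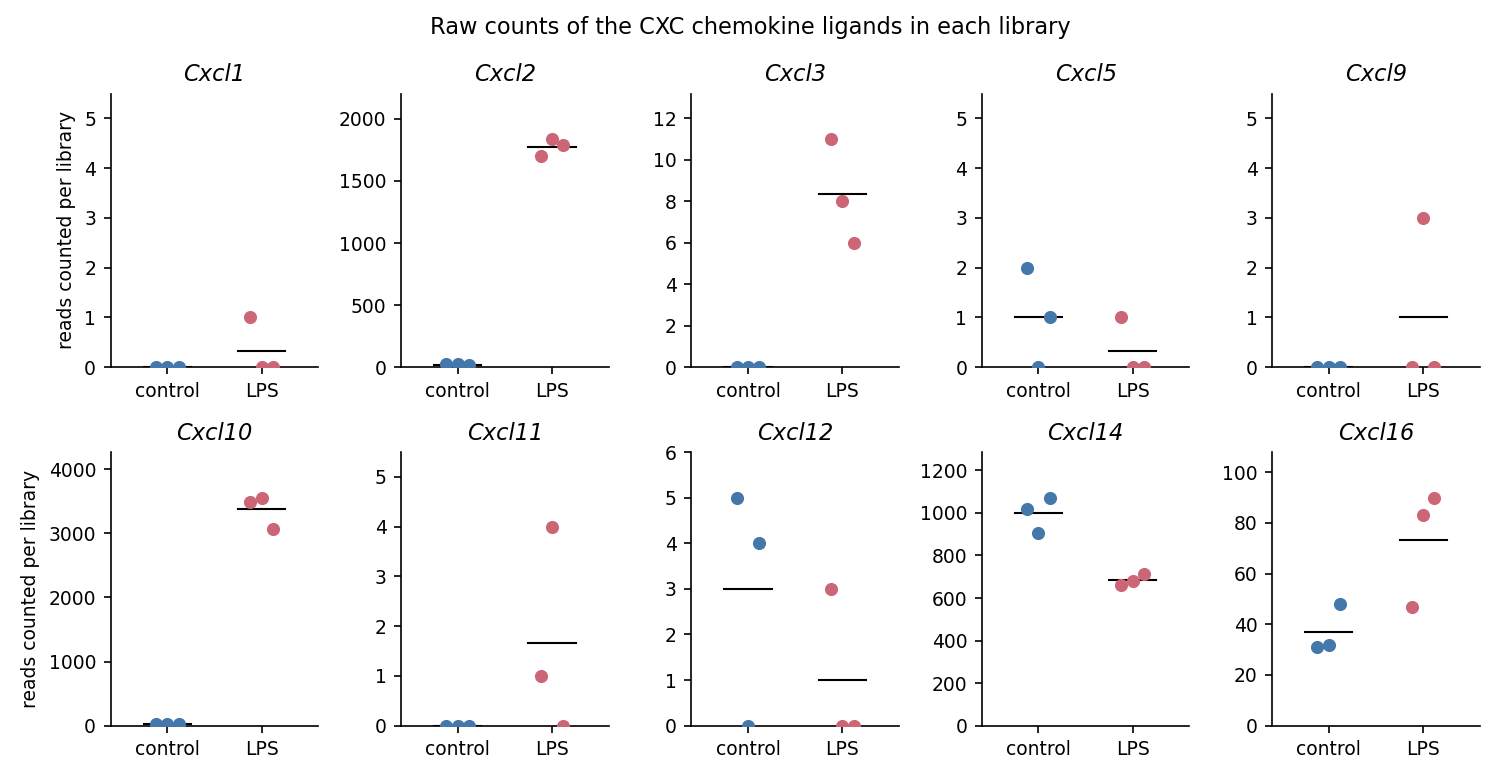
Raw read counts (vertical axis, linear, starting at 0, with its own scale in each panel) of the 10 CXC ligands in the 3 control libraries (blue) and the 3 LPS libraries (red). Horizontal lines are means. Cxcl10 and Cxcl2 have at least 1698 counts with LPS and at most 32 in control, and 6 ligands never exceed 11 counts.

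Cxcl2, a neutrophil attractant also known as macrophage inflammatory protein 2, had counts of 23, 22 and 15 over the control libraries. With LPS it had 1698, 1837 and 1786 counts. All LPS libraries were far above all control libraries, at 109 ± 2.29 CPM against 1.13 ± 0.286 CPM (mean ± SD, n = 3 each). The edgeR log2FC was 6.60 with a standard error (SE) of 0.10 (adjusted p = 1.1e-15), and it was 6.34 without control replicates 2 and 3. The gene (ENSMUSG00000058427) lies at chr5:90903871-90905938 on the plus strand of mm10.

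The other neutrophil attractants had very few reads. Cxcl3, the closest relative of Cxcl2, had 0 counts in each control library and 11, 8 and 6 counts with LPS. The groups did not overlap, and the LPS level of 0.517 ± 0.168 CPM (SD, n = 3) was at least 3.06-fold higher than the floor of 3 counts per control library. The exact two-sided permutation p was 0.1, the smallest that 3 against 3 libraries allow. Cxcl3 did not pass the filter on low counts of the main test. In fits that kept it, the adjusted p was 0.00143 with DESeq2 and 1.96e-04 with edgeR without a filter, which made it a called gene there.

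Cxcl1, in human known as GRO-alpha, had 1 count in LPS replicate 1 and 0 in the 5 other libraries, while Cxcl2 collected 5321 counts over the LPS libraries. A gap of 10755 bases separates it from Cxcl2 on the same strand. Cxcl5 had 2, 0 and 1 counts in control and 1, 0 and 0 with LPS, and a difference in Cxcl1 or Cxcl5 was not detectable at this depth.

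Coding sequences of Cxcl2 and Cxcl3 in GENCODE M21 were 89.7% identical, those of Cxcl1 and Cxcl2 75.7% and those of Cxcl1 and Cxcl3 72.7%. Of the 2259 distinct 100-base stretches in Cxcl2 transcripts, 69 (3.05%) also occurred in Cxcl3. No other member shared a 100-base stretch with another gene. Of 2159 distinct 50-base stretches in Cxcl2, 126 (5.84%) also occurred in Cxcl3. At that length 152 of 3587 Cxcl3 stretches (4.24%) were shared, with Cxcl2 and with many other genes. Of the Cxcl5, Cxcl9 and Cxcl11 stretches, 0.693%, 0.472% and 0.237% were also shared with other genes. The 25 Cxcl3 counts with LPS were 0.47% of the Cxcl2 counts, and the same proportion of the 60 control Cxcl2 counts would be 0.282 counts. How far reads of Cxcl2 or of other genes entered the Cxcl3 count was not tested, so the Cxcl3 values are uncertain.

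Cxcl10, also known as interferon gamma-induced protein 10, showed the highest level of any ligand after LPS. Its counts were 32, 28 and 24 without stimulation and 3493, 3555 and 3072 with LPS. The groups were far apart, with every LPS library close to the others, at 208 ± 18.6 CPM against 1.58 ± 0.289 CPM in control (SD, n = 3 each). The edgeR log2FC was 7.04 (SE 0.11, adjusted p = 1.1e-15), and 6.80 without control replicates 2 and 3. By log2FC Cxcl10 ranked 10 and Cxcl2 ranked 16 of the 12296 genes tested. The gene (ENSMUSG00000034855) lies at chr5:92346638-92348889 on the minus strand.

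Cxcl9 and Cxcl11, which bind the same receptor as Cxcl10, had almost no reads. Cxcl9 had 0 counts in control and 0, 3 and 0 with LPS. Cxcl11, annotated as a polymorphic pseudogene, a class for genes intact in some strains only, had 0 counts in control and 1, 4 and 0 with LPS. For both, the groups overlapped, and a difference was not detectable at this depth.

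The Cxcl10 to Cxcl2 ratio was compared within each library on the log2 scale of raw counts. Control values were 0.48, 0.35 and 0.68 and LPS values 1.04, 0.95 and 0.78, so Cxcl10 had more reads than Cxcl2 in all 6 libraries. The mean ratio was 0.42 higher with LPS and the groups did not overlap, with an exact two-sided permutation p of 0.1. Of 8 ligand pairs listed, 3 had over 3 counts of both genes in every library. The mean log2 ratio of Cxcl14 to Cxcl16 went from 4.78 in control to 3.28 with LPS and that of Cxcl16 to Cxcl10 from 0.38 to -5.58. Neither pair overlapped between groups, and the exact permutation p, adjusted over the 3 pairs, was 0.1 for each, the smallest possible.

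The nearest expression patterns to Cxcl10 were sought among tested genes by the distance between mean log2 FPKM (fragments per kilobase of gene length, on the CPM scale) in control and LPS, over 6 libraries. This is a description of likeness in level and change. The 3 nearest genes outside the family were Ifit1 at a distance of 0.407, Ifit3 at 0.546 and Usp18 at 1.15, all known interferon-stimulated genes. For Cxcl2 they were Ifit3 at 0.511, Rtp4 at 0.803 and Ccl5 at 1.01, of which Ccl5 is a CC chemokine. Ifit3 was thus near to both ligands, so likeness to an interferon-stimulated gene was not particular to Cxcl10.

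Cxcl14 was the most abundant ligand of unstimulated cells. Its counts were 1017, 908 and 1072 in control and 659, 680 and 713 with LPS. Every LPS library was below every control library, and the level fell from 56.2 ± 4.16 to 42.2 ± 1.05 CPM (SD, n = 3 each). The edgeR log2FC was -0.41 (SE 0.06, adjusted p = 1.6e-04), short of the fold threshold for a DEG, and -0.49 without control replicates 2 and 3. Genes lower with LPS at adjusted p alone made up 15.7% of those tested. The gene (ENSMUSG00000021508) lies at chr13:56288643-56296551 on the minus strand.

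Cxcl12, also called stromal cell-derived factor 1, had 5, 0 and 4 counts in control and 3, 0 and 0 with LPS. The 3 libraries with Cxcl12 reads, control replicates 1 and 3 and LPS replicate 1, were also those with most fibroblast marker reads. The 8 fibroblast markers, led by Col1a1 and none at 0 in every library, summed to 205, 8 and 148 counts in control and to 135, 18 and 16 with LPS, in replicate order. The part of these cells or their RNA in the Cxcl12 counts was not tested, and the groups overlapped.

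Cxcl16, which in its membrane form also serves as a scavenger receptor, had counts of 31, 32 and 48 in control and of 47, 83 and 90 with LPS. Control replicate 3 and LPS replicate 1 had nearly the same count, but on the CPM scale the groups did not overlap, at 2.58 in the highest control and 2.98 in the lowest LPS library. The mean rose from 2.07 ± 0.445 to 4.51 ± 1.34 CPM (SD, n = 3 each). The edgeR log2FC was 1.12 (SE 0.26, adjusted p = 0.0039), short of the fold threshold, and 1.32 without control replicates 2 and 3. Higher genes at adjusted p alone made up 18.7% of those tested. The gene (ENSMUSG00000018920) lies at chr11:70453983-70459984 on the minus strand, and 552 of its 3021 exon bases are also exon of Zmynd15 on the opposite strand. Zmynd15 had 60, 93 and 107 counts in control and 77, 199 and 193 with LPS, with overlapping counts and an edgeR log2FC of 0.98 (SE 0.28, adjusted p = 0.013). The strand setting of the counting is not given in the sources used here, and the part of reads from this overlap in the Cxcl16 counts was not tested, so the Cxcl16 values are uncertain.

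Summed per length, the 10 ligands rose from between 30.1 and 34.7 FPKM in control to between 161 and 175 FPKM with LPS. The sum leaves out Pf4, which is not among the 10 and had mean levels of 6.23 FPKM in control and 7.32 FPKM with LPS. The composition of the 10 turned over. Cxcl14 made up 93.7% to 94.4% of the summed FPKM in control and 13.0% to 14.7% with LPS. Cxcl10 made up 51.5% to 56.3% and Cxcl2 29.8% to 32.6% with LPS. Together Cxcl2 and Cxcl10 went from between 2.88% and 4.35% to between 84.1% and 86.2%. With the longest protein-coding transcript of each gene in place of the deposited length, Cxcl14 made up 91.8% to 92.9% in control and 9.2% to 10.7% with LPS. Cxcl10 then made up 62.0% to 66.4% and Cxcl2 23.5% to 26.2% with LPS.

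**Figure D2:**
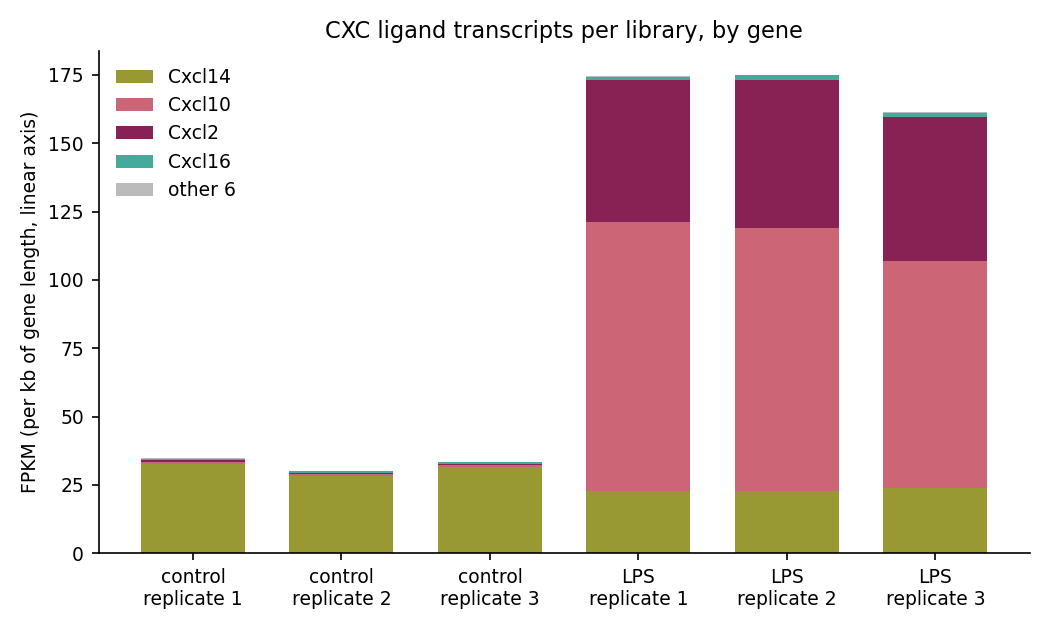
Level of the 10 CXC ligands (FPKM, linear axis from 0) in each of the 6 libraries, stacked by gene. Control bars consist almost wholly of Cxcl14, and LPS bars, of 161 to 175 FPKM, mostly of Cxcl10 and Cxcl2.

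In order of mean control level per length among the 10 ligands, Cxcl14 (30.7 FPKM) stood far above Cxcl10 (0.703), Cxcl16 (0.685) and Cxcl2 (0.548). The ranges of these 3 over the control libraries overlapped. Whether they overlap depends on the length used: with the longest protein-coding transcript Cxcl10 was at 0.954 to 1.38 FPKM in control, with no overlap with the 0.434 to 0.722 FPKM of Cxcl2. With LPS the order was Cxcl10 (92.5 FPKM), Cxcl2 (52.9), Cxcl14 (23.1) and Cxcl16 (1.49), with no overlap between neighbours over the libraries.

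On chromosome 5 the members lie in 2 groups, and in each a single member gained many reads. The first group spans 146.579 kb from Cxcl5 to Cxcl2 and also holds Ppbp, Pf4 and Cxcl15. Pf4, platelet factor 4, had 239 counts in control and 257 with LPS, summed over libraries, while Ppbp and Cxcl15 had none. The second group spans 44.139 kb and holds Cxcl9, Cxcl10 and Cxcl11, with 18558 bases between Cxcl9 and Cxcl10 and 10654 bases between Cxcl10 and Cxcl11.

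Genes beside the groups had small fold changes. Mthfd2l, next to Cxcl2, had an edgeR log2FC of 0.40 (adjusted p = 0.040) and Sdad1, beyond Cxcl9, one of 0.34 (adjusted p = 3.9e-05). Nup54, beyond Cxcl11, had a log2FC of -0.10 (edgeR adjusted p = 0.34), and Rassf6 had too few reads for a test. Art3, on the opposite strand across Cxcl10, had 8 counts in control and 7 with LPS, and 133 of the 2252 Cxcl10 exon bases are also Art3 exon. Gm2673, which shares 1582 of the 3794 Cxcl11 exon bases on the opposite strand, had 0 counts.

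**Figure D3:**
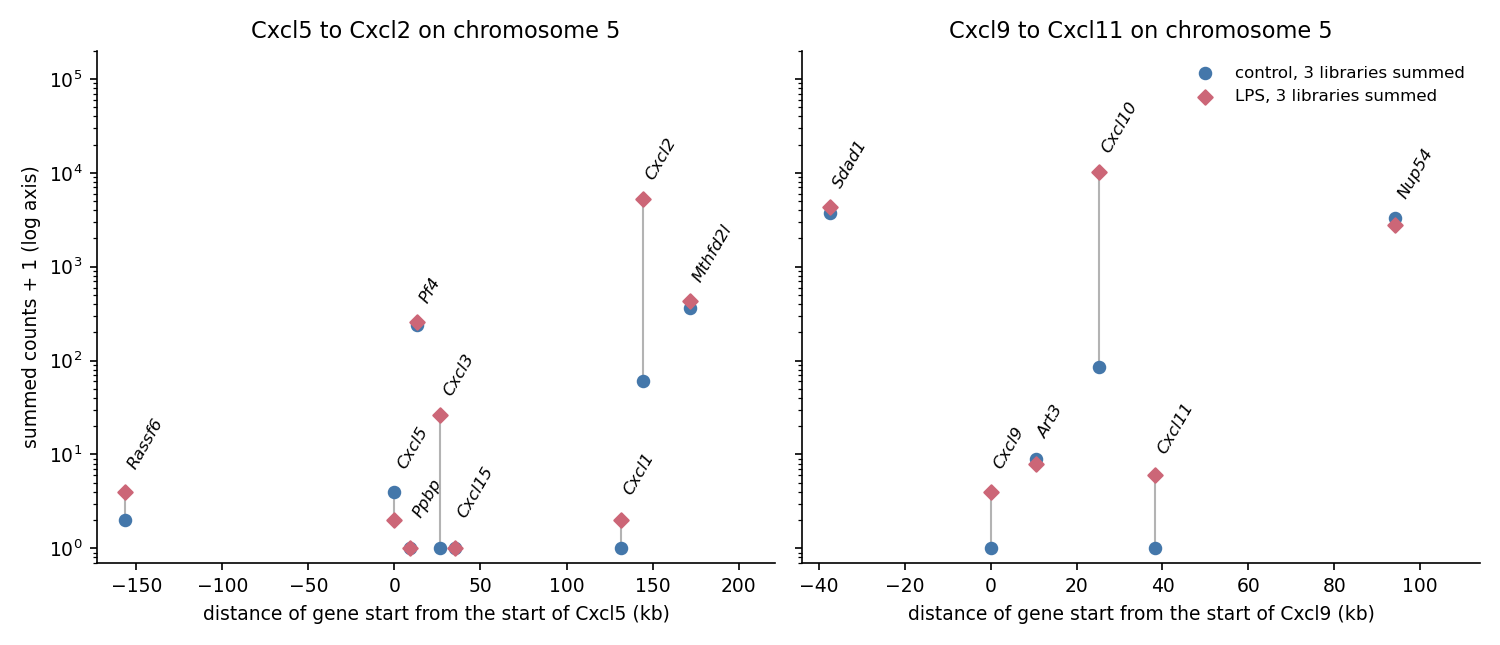
Summed counts of 3 libraries plus 1 (vertical log axis) against the distance of each gene's start from the first gene of its group on chromosome 5 (kb), control in blue circles and LPS in red diamonds. The longest grey lines join the Cxcl2 and Cxcl10 values, followed by that of Cxcl3, from 0 to 25 summed counts. For flanking genes the control and LPS values lie close together.

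The remaining CXC ligand genes of the table were Pf4, Ppbp, Cxcl13, Cxcl15 and Cxcl17. Pf4 had 80, 85 and 74 counts in control and 71, 78 and 108 with LPS, and the groups overlapped. Its edgeR log2FC was 0.24 (SE 0.19, adjusted p = 0.37), with a 95% interval from -0.16 to 0.64. The other 4 genes had 0 counts in every library.

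Receptor transcripts were compared next, because these ligands act through such receptors. Receptor protein and binding were not measured. Of 8 receptor genes, 3 had enough reads, of which Cxcr6 rose as a DEG, Cxcr4 fell at adjusted p alone and Cxcr3 did not pass. Of all tested genes, 2.4% were up-regulated DEG and 15.7% were lower at adjusted p alone, and 3 receptors are too few to set against these shares. Their median log2FC was 0.03. Cxcr6, the receptor of Cxcl16, had 15, 5 and 9 counts in control and 38, 49 and 31 with LPS. The groups did not overlap, and the edgeR log2FC was 2.14 (SE 0.38, adjusted p = 4.8e-04), although it lost the call when tested against a log2FC of 1.5 itself. Without control replicates 2 and 3 its log2FC was 1.46 (SE 0.49, edgeR adjusted p = 0.049), under the fold threshold, so the DEG call depends on those libraries.

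Cxcr4, the receptor of Cxcl12, had 1125, 1179 and 1239 counts in control and 710, 650 and 604 with LPS. It was the most abundant receptor by count in every library and was lower in every LPS library (edgeR log2FC -0.71, SE 0.07, adjusted p = 1e-06). Cxcr3, the receptor of Cxcl10, had 164, 197 and 206 counts in control and 188, 156 and 182 with LPS. These overlapped, with an edgeR log2FC of 0.03 (SE 0.12, adjusted p = 0.88) and a 95% interval from -0.24 to 0.29.

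Cxcr2, the receptor of Cxcl2, had 4, 1 and 3 counts in control and 8, 1 and 4 with LPS. Cxcr5, Cxcr1, Ackr3 and Ackr1 had at most 5 counts in any library, so differences in them were not detectable at this depth.

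**Figure D4:**
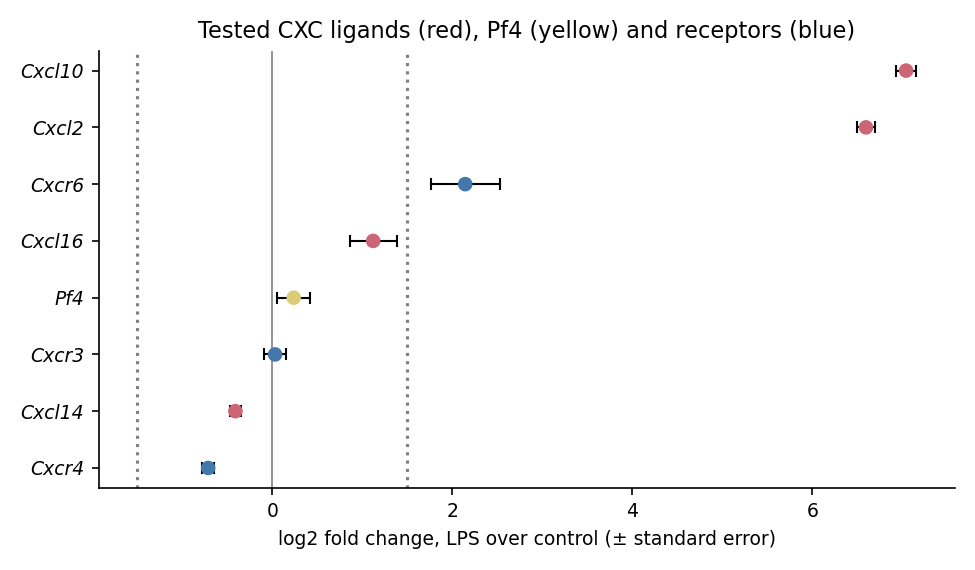
Log2 fold changes, LPS over control (horizontal axis), with standard errors as bars, for tested CXC ligands (red), Pf4 (yellow) and CXC receptors (blue). Dotted lines mark the fold threshold of 1.5, which Cxcl10, Cxcl2 and Cxcr6 exceed.

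Of 26 genes of LPS sensing and NF-κB, 25 were tested, 18 rose and 1 fell at adjusted p alone, 6 did not pass, and the median log2FC was 0.55. Beside these and the lists that follow, 18.7% of all tested genes were higher and 15.7% lower at adjusted p alone, 2.4% were up-regulated DEG, and the median was 0.0036. The DEG were Nfkbiz, a nuclear co-regulator of NF-κB (log2FC 3.59, SE 0.12), Tnfaip3, the A20 feedback inhibitor (2.34, SE 0.06), and Nfkbia, the inhibitor IκBα (1.67, SE 0.05). Among genes that were not DEG, Cd14, the LPS co-receptor (log2FC 0.61, SE 0.03), and Nfkb1, a subunit of NF-κB (1.36, SE 0.05), had the highest CPM over all libraries, which is not corrected for length. Per length Nfkb1, at 7.3 FPKM in control and 18.7 FPKM with LPS, was below Myd88 at 33.8 and 49.6 FPKM.

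In the interferon axis, 16 of 18 genes were tested, 10 rose, 2 fell and 4 did not pass at adjusted p alone (18.7% and 15.7% of all tested genes rose and fell), with a median log2FC of 0.48. DEG of this list included Irf7, a regulator of interferon genes (log2FC 3.97, SE 0.07), and the signalling inhibitor Socs1 (2.37, SE 0.36). Stat2 (2.24, SE 0.09) and Irf9 (2.08, SE 0.07), which act in signalling from the interferon receptor, were also DEG. Socs1 lost the call when tested against a log2FC of 1.5 itself. Of the genes that were not DEG, Jak1 (log2FC 0.22, SE 0.04) and Ifngr2 (0.56, SE 0.05) had the highest CPM over all libraries, whereas per length Irf5 was highest at 30.8 FPKM in control and 40.7 FPKM with LPS. Ifnb1, which was picked for mention with its values known, had 0 counts in control and 1, 1 and 0 with LPS, and Ifng had none.

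Many chemokine transcripts are short-lived, and regulators of mRNA decay were examined for that reason. Of 10 genes 9 were tested, 4 rose, 1 fell and 4 did not pass at adjusted p alone, with a median log2FC of 0.17. The share that fell was near the 15.7% of all tested genes. Zc3h12a, the endonuclease Regnase-1, was the only DEG of the list (log2FC 3.56, SE 0.08). Khsrp (-0.13, SE 0.05) and Zfp36l2 (0.07, SE 0.05) had the highest CPM among the others.

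Of 8 proteases that can shed or trim chemokines, 6 were tested, 2 rose, 2 fell and 2 did not pass at adjusted p alone, with a median log2FC of 0.08. With 34.3% of all tested genes passing in either direction, 4 of 6 is too few genes to read as a result about the list. Mmp12, the macrophage elastase, was the DEG (log2FC 1.77, SE 0.30), and it lost the call when tested against a log2FC of 1.5 itself. Adam10, the main sheddase of Cxcl16, was lower (log2FC -0.36, SE 0.04, edgeR adjusted p = 5.9e-06) and Adam17 was higher (0.20, SE 0.04, edgeR adjusted p = 0.0026).

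**Figure D5:**
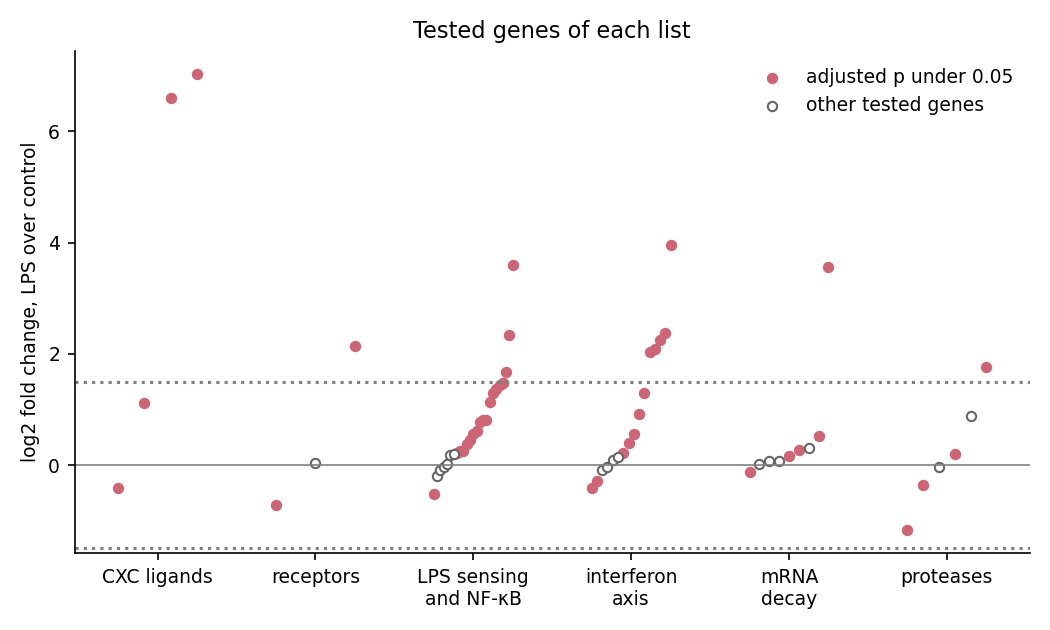
Log2 fold change, LPS over control (vertical axis), of each tested gene in 6 lists, with filled red points for an adjusted p under 0.05 and open points for the other tested genes. Cxcl10 and Cxcl2, at 7.04 and 6.60, lie above every gene of the other lists, the highest of which is Irf7 at 3.97.

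T cell and neutrophil marker sums were low, and those of the endothelial and astrocyte lists were larger. The neutrophil and endothelial lists were higher in every LPS library. The 6 neutrophil markers summed to 3.79 to 4.48 CPM in control and 10.4 to 11.6 CPM with LPS, almost wholly S100a8, which macrophages can also express, and Ly6g was at 0 in every library. The 6 T cell markers reached at most 0.244 CPM, with Cd3e, Cd3g and Cd8a at 0. The 6 endothelial markers summed to 41.0 to 45.8 CPM in control and 46.7 to 53.5 CPM with LPS, mostly Vwf, with Kdr a DEG at 2 to 8 counts in control and 13 to 21 with LPS, and with Cldn5 at 0. The astrocyte list held 6 genes, led by Gja1 and none at 0 in every library. Its sum was 96.0 to 98.7 CPM in control and 96.0 to 104.8 CPM with LPS. That sum hides changes in both directions: of 3 genes tested, 1 rose, 1 fell and 1 did not pass at adjusted p alone (median log2FC -0.29). These 3 are too few to set against the 34.3% of all tested genes that passed. The part of such cells in the ligand levels was not tested.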

How the data were processed

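RNA-seq libraries of N9 microglia, 3 control and 3 LPS, were grouped by the treatment in the labels. The authors deposited whole-number read counts per gene, without normalization, and per the labels counting used featureCounts 1.5.0-p3 on mm10, as listed in the submitters' processing notes. The aligner, annotation release and strand setting are not given in the sources used here. A second deposited table holds the authors' own comparison (fold changes and p-values) and 20 columns of per-sample or group values, and it was not used. No count row lacked a gene name.

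Counts were filtered with filterByExpr by group and tested with edgeR 4.0.16 (R 4.3.3), using TMM, the quasi-likelihood test, a prior count of 0.125 and Benjamini-Hochberg adjustment over 12296 genes. DEG had an adjusted p under 0.05 and an absolute log2FC over 1.5, thresholds taken from the study. The SE of a log2FC was taken as |log2FC| over the root of the F statistic. FPKM used the deposited gene length. Likeness used an offset of 0.01 FPKM. Permutation tests were exact and two-sided. The edgeR step was tested on simulated data. Other fits used DESeq2 1.42.0, RLE factors, no low-count filter (with and without robust dispersion), a test against the fold threshold, a replicate block, a prior count of 2, and each library left out. Leaving out control replicates 2 and 3 together, and the transcript-length FPKM, were added after seeing the data. Promoters came from RefSeq and exons and transcripts from GENCODE M21.

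The members and gene lists were chosen with earlier results of these data known. Named genes are all members, receptors and remaining CXC ligands, per list the DEG (up to 6) and the 2 other genes with the highest CPM, and the 3 genes nearest to each called member. A DEG of the interferon list that this rule names is not reported here. Total counts of 16363767 to 17956772 per library set the precision, and counting limits cover counting error only, since no molecular identifiers are described for these reads.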

Additional observations from a re-analysis of the deposited data

How the results depend on the processing

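In every fit run, Cxcl10 and Cxcl2 were called and no tested ligand changed direction. The count of ligands called was 2 with each library left out and 3 with DESeq2 or without the low-count filter, where Cxcl3 was tested. Over the fits that leave out a library, log2FC ranged from 6.90 to 7.16 for Cxcl10, from 6.39 to 6.72 for Cxcl2, from -0.48 to -0.38 for Cxcl14 and from 0.96 to 1.34 for Cxcl16. Tested against a log2FC of 1.5 itself, 183 genes in all were called (181 up, 2 down) in place of 326, since that test asks for more than the threshold, and neither Cxcl14 nor Cxcl16 passed. Without filtering 469 genes were called (378 up, 91 down). With a library left out, 353 to 377 genes were DEG. The down-regulated DEG numbered 31 with all libraries, 49 without control replicate 1, 62 without LPS replicate 1, 52 without LPS replicate 2 and 52 without LPS replicate 3, and 38 to 42 without control replicate 2 or 3. The cause was not tested. Without control replicates 2 and 3 together, where the lone control is assumed to vary like the LPS libraries, 334 genes were called. Pathway and receptor genes called numbered 11, 8 against the fold threshold, 10 without those 2 controls, where Cxcr6 was lost, and 11 to 12 with a library left out.

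The replicate numbers were checked for pairing. Deviations of same-numbered libraries correlated at 0.136, 0.0588 and -0.0042, and control replicate 2 correlated best with LPS replicate 3 (0.0912), so the numbers were not taken as pairs. With the replicate block, 329 genes and 2 ligands were called. Depth limits Cxcl1, Cxcl5, Cxcl9, Cxcl11 and Cxcl12, which had at most 5 counts per library.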
